A study of Oryza sativa with 6 samples.

Results

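The heat shock loci described here are 8 rice genes given by their locus IDs: HSP101 (Os05g0519700), an HSP90 (Os04g0107900), 5 small heat shock proteins (Os01g0136100, Os01g0136200, Os03g0266300, Os03g0266900 and Os03g0267000) and the chloroplast small heat shock protein HSP26.7 (Os03g0245800). The rule gives the loci by ID and sets no limit on their values, but it was written with earlier results of these data known. Of the 8 loci, 4 were listed among the 19696 rows of the expression table: HSP101 and the small heat shock proteins Os03g0266300, Os03g0266900 and Os03g0267000. The other 4 IDs, Os04g0107900, Os01g0136100, Os01g0136200 and Os03g0245800, had no row in the table used here, so no level can be given for the HSP90, for the chloroplast HSP26.7 or for the small heat shock proteins of chromosome 1. The absence of a row is not a measured 0: the table holds no row at 0 in every library, and the sources used here do not give the rule for listing a gene.

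RNA was sequenced from leaves of rice (Oryza sativa) plants that were 3 weeks old and had been kept on half-strength MS, a defined plant culture medium, under what the labels call normal conditions. The groups were the wild-type variety ZH11, with 3 libraries, and DGP1-OE1, an overexpressor of DGP1, with 3 libraries, and the stated question was the role of DGP1 in metabolism. DGP1-OE1 is the only overexpressor in these data, and the promoter that drives its DGP1 is not given in the sources used here. All titles carry the mark Ck, which the labels do not explain, and no label names a heat treatment or a growth temperature. Whether the replicates came from separate plants is not labelled. The p-values therefore weigh the differences only against variation among libraries, and that variation may be technical. The table pairs no ID with a gene name, so neither the level of DGP1 nor the leaf markers could be checked against the labels.

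Heat shock proteins are molecular chaperones that keep other proteins from clumping when heat or another stress unfolds them. Small heat shock proteins hold unfolded proteins without using ATP, and HSP101, the cytosolic plant member of the ClpB class, uses ATP to pull proteins out of aggregates and is known in several plants as a requirement for acquired heat tolerance. HSP90 helps client proteins such as kinases and receptors to mature, and HSP26.7 belongs to the small heat shock proteins that are imported into the chloroplast. Heat shock transcription factors induce many of these genes under heat, and many small heat shock protein genes have little expression in unstressed leaves.

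The values are FPKM, fragments scaled to transcript length and library size, so that levels can be compared between genes. All 4 listed loci had lower mean FPKM in DGP1-OE1 than in ZH11, and none of the differences passed the test across all genes. For comparison, 51.5% of all 19696 rows had a negative difference on the log2(FPKM + 1) scale. Os03g0267000 stood at 0.339 times its mean wild-type level with no overlap between the groups, which 7.26% of all rows showed in that direction. HSP101 was low in every library except 1 of ZH11, and the other 2 small heat shock proteins had overlapping groups. In bulk leaf RNA, fewer cells of a type and less RNA per cell cannot be told apart.

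HSP101, on chromosome 5 by its ID, was the least expressed of the listed loci by its group means. Its level was 4.51, 1.06 and 0.779 FPKM in ZH11 replicates 1, 2 and 3, and 0.347, 0.69 and 0.307 FPKM in DGP1-OE1 replicates 1, 2 and 3. Every DGP1-OE1 library was below every ZH11 library, but by a gap of only 0.0885 FPKM between the lowest ZH11 and the highest DGP1-OE1 library, and ZH11 replicate 1 stood far above the rest. The mean was 2.12 ± 2.08 FPKM for ZH11, against 0.448 ± 0.211 FPKM for DGP1-OE1 (SD, n = 3 each), so that ZH11 was 4.72 times as high. Without ZH11 replicate 1 that ratio was 2.05. In ZH11 replicate 1, 38.4% of all rows had a lower FPKM than HSP101, against 9.19% to 9.96% in the other ZH11 libraries and 2.36% to 7.04% in DGP1-OE1.

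HSP101 was not part of the main test, which took genes of at least 1 FPKM in at least 3 libraries, a level that HSP101 reached in 2 ZH11 libraries. In the fit of all 19696 rows with no such filter, its difference in log2(FPKM + 1), as DGP1-OE1 minus ZH11, was -0.92 with an SE of 0.442, and the 95% interval ran from -1.89 to 0.05 (limma, adjusted p = 0.607). Without ZH11 replicate 1 the difference was -0.41 (limma, adjusted p = 0.932). The size depended on the pseudocount, as it does for a gene at this level: with 0.1 in place of 1 the difference was -1.68 with an SE of 0.826 (limma with no filter, adjusted p = 0.649). A difference of 2.48 log2 units would have been needed for a call in the unfiltered fit at the SE of this gene.

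Os03g0266300, Os03g0266900 and Os03g0267000 lie on chromosome 3 by their IDs. Os03g0266900 and Os03g0267000 were next to each other in the ID order of the table, and 2 other listed IDs stood between Os03g0266300 and Os03g0266900. The RefSeq gene table for rice (assembly ASM3414082v1) has a run of genes named HSP17.4, HSP18.1 and HSP17.7 side by side on chromosome 3, with HSP17.9A close by, but it pairs none of them with a locus ID, so no such name is assigned here. Small heat shock proteins of one class have alike coding sequences, and the sources used here do not say how reads that fit several of them were counted. The split of reads among the 3 loci is therefore uncertain.

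Os03g0267000 had the clearest separation of the groups among the tested loci. ZH11 replicates 1, 2 and 3 held 4.29, 5.78 and 2.44 FPKM of it, and DGP1-OE1 replicates 1, 2 and 3 held 1.64, 0.878 and 1.72 FPKM. All DGP1-OE1 libraries were below all ZH11 libraries, with a gap of 0.719 FPKM. The mean was 4.17 ± 1.67 FPKM for ZH11, against 1.41 ± 0.466 FPKM for DGP1-OE1 (SD, n = 3 each), which was 0.339 times the wild-type mean. The difference in log2(FPKM + 1) was -1.06 with an SE of 0.379 and a 95% interval from -1.9 to -0.23 (limma, unadjusted p = 0.0172, adjusted p = 0.417). The interval thus lay below 0 before correction, with an SE that limma moderates with values from all tested genes. The difference did not pass the correction over 18270 genes, where 4.09% of the genes had a smaller p.

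The difference of Os03g0267000 was negative in each of the 6 fits that left out 1 library, from -1.33 without ZH11 replicate 3 to -0.84 without ZH11 replicate 2. The ratio of the ZH11 to the DGP1-OE1 mean ran from 2.38 to 3.56 in those fits. A difference of 2.11 log2 units, or 4.31-fold on the FPKM + 1 scale, would have been needed for a call at its SE.

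By its group means Os03g0266300 was the most abundant of the listed loci, although Os03g0266900 was above it in DGP1-OE1 replicate 3. Between 41.6% and 74.1% of all rows lay below Os03g0266300 in each library. Its level was 8.54, 21.3 and 7.15 FPKM in ZH11 replicates 1, 2 and 3, and 5.3, 9.64 and 7.04 FPKM in DGP1-OE1 replicates 1, 2 and 3. ZH11 replicate 2 was far above the other 5 libraries, and DGP1-OE1 replicate 2 lay above the other 2 ZH11 libraries, so the groups overlapped. The mean was 12.3 ± 7.8 FPKM for ZH11, against 7.33 ± 2.18 FPKM for DGP1-OE1 (SD, n = 3 each). The difference in log2(FPKM + 1) was -0.56 with an SE of 0.39 and a 95% interval from -1.42 to 0.3 (limma, adjusted p = 0.753). Without ZH11 replicate 2 the ZH11 mean was 7.84 FPKM, 1.07 times that of DGP1-OE1, and the log2 difference was -0.12 (limma, adjusted p = 0.947).

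Os03g0266900 varied most between libraries of one genotype. ZH11 replicates 1, 2 and 3 held 2.05, 11.9 and 0.972 FPKM, and DGP1-OE1 replicates 1, 2 and 3 held 1.42, 0.912 and 7.69 FPKM. In each genotype 1 library was high and the other 2 low. The high ones were ZH11 replicate 2 and DGP1-OE1 replicate 3. The groups overlapped, and ZH11 replicate 2 lay above every DGP1-OE1 library. The mean was 4.99 ± 6.05 FPKM for ZH11, against 3.34 ± 3.77 FPKM for DGP1-OE1 (SD, n = 3 each). The difference in log2(FPKM + 1) was -0.32 with an SE of 0.716 and a 95% interval from -1.89 to 1.26 (limma, adjusted p = 0.946). Its direction turned on single libraries: it was 0.48 without ZH11 replicate 2 (limma, adjusted p = 0.863) and 0.1 without DGP1-OE1 replicate 2 (limma, adjusted p = 0.985). The ratio of the ZH11 to the DGP1-OE1 mean FPKM was 0.453 without ZH11 replicate 2, 1.1 without DGP1-OE1 replicate 2, where the mean FPKM stayed higher in ZH11 although the log2 difference was positive, and 4.28 without DGP1-OE1 replicate 3.

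**Figure D1:**
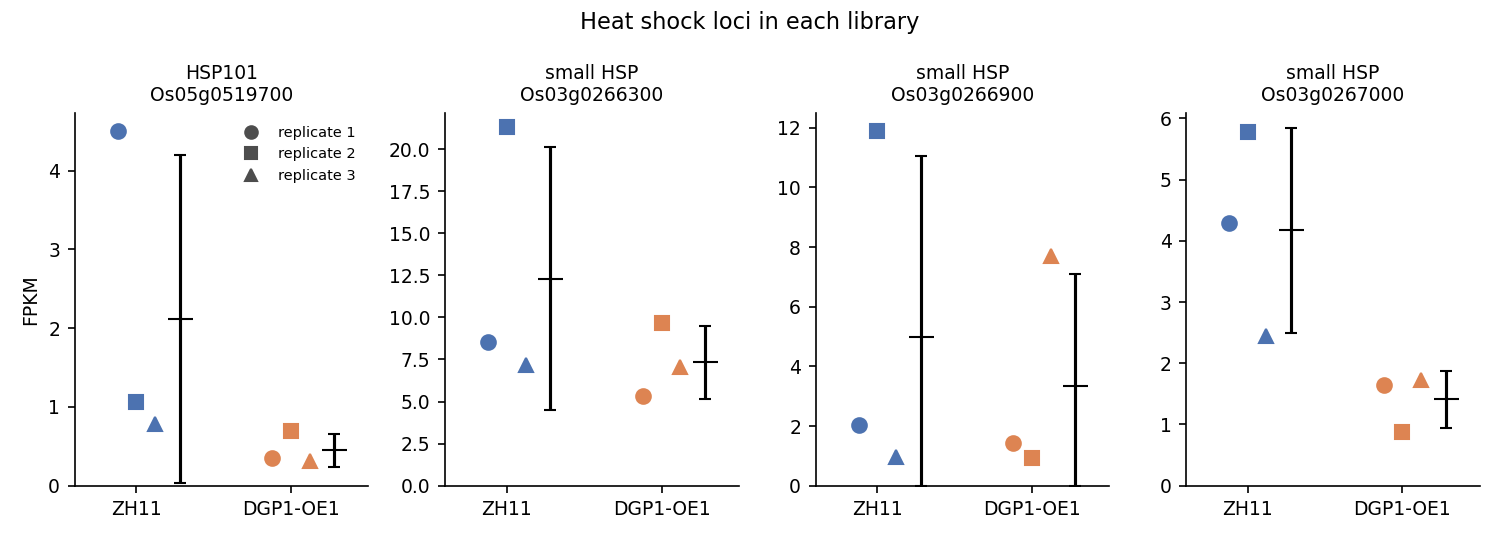
FPKM of the 4 listed heat shock loci in each library of ZH11 (blue) and DGP1-OE1 (orange), on linear axes from 0 that differ between panels; marker shapes give the replicate, and black bars the mean ± SD over 3 libraries, drawn no lower than 0. ZH11 replicate 1 is high for HSP101 at 4.51 FPKM, and ZH11 replicate 2 is the highest library for each of the 3 small heat shock proteins. The groups do not overlap for HSP101, by a gap of 0.0885 FPKM, and for Os03g0267000. Of all rows, 7.26% were lower in DGP1-OE1 without overlap.

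Among the 18270 genes tested, 0.356% were called at an adjusted p under 0.05 (0.159% higher and 0.197% lower in DGP1-OE1). Of the 3 heat shock loci tested, 0 were called by limma, and 1, Os03g0267000, was lower at an unadjusted p under 0.05, as were 4.26% of the tested genes. With no filter 0 of the 4 listed loci were called, where 0.35% of all rows were. Groups without overlap and lower in DGP1-OE1 were seen in 7.26% of all rows and in 7.19% of the tested genes, and in 2 of the 4 listed heat shock loci, HSP101 and Os03g0267000. The median difference in log2(FPKM + 1) was -0.562 over the 3 tested loci and -0.00959 over all tested genes, and -0.741 over the 4 listed loci with no filter, beside -0.0133 over all rows. Leaving out single libraries moved the median of the 3 tested loci to -0.12 without ZH11 replicate 2, -0.88 without ZH11 replicate 3 and -0.99 without DGP1-OE1 replicate 3. The loci share the same 6 libraries, so their common direction is not a repeated observation.

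**Figure D2:**
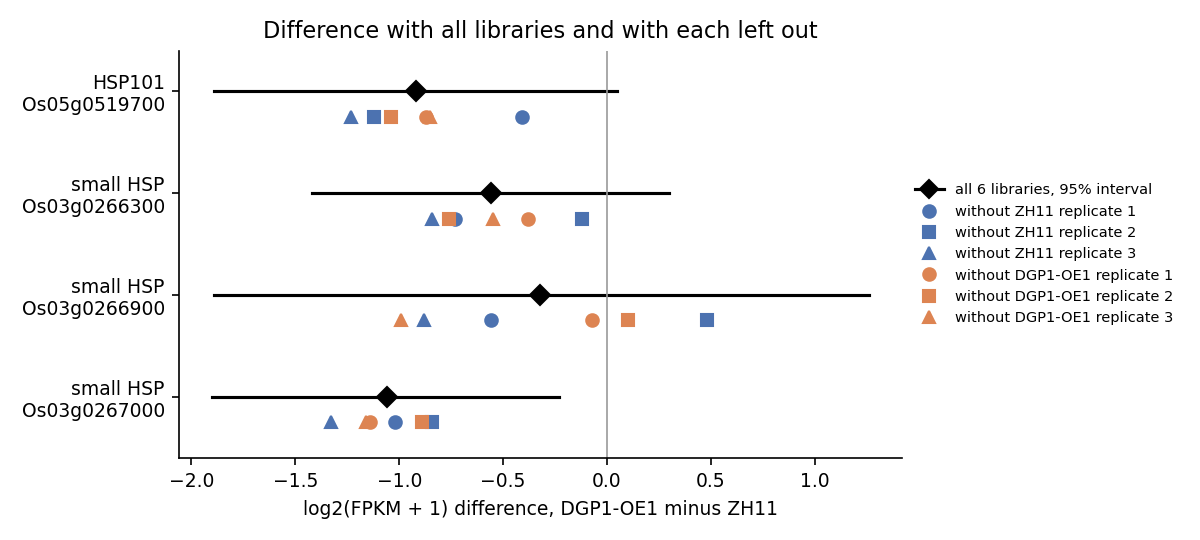
Difference in log2(FPKM + 1), as DGP1-OE1 minus ZH11, for the 4 listed loci, with black diamonds and lines for the limma estimate and its 95% interval from 6 libraries and coloured marks for the estimate with 1 library left out; HSP101 is from the fit with no filter. The interval of Os03g0267000, from -1.9 to -0.23, lies below 0 and those of the other 3 loci include 0, and the marks of Os03g0266900 fall on both sides of 0.

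Variation between replicates was above the median of all tested genes in all 3 tested loci. That median covers genes of every level, and no comparison with genes of a like level was made. The within-group SD of log2(FPKM + 1) was 1.3 for Os03g0266900, above that of 99.2% of the tested genes. It was 0.614 for Os03g0266300, above 84.1% of them, and 0.408 for Os03g0267000, above 58.2%, where the median of all tested genes was 0.366. HSP101 had a within-group SD of 0.643 in the unfiltered fit, above 86.6% of all rows. From the lowest to the highest library of one genotype, Os03g0266900 spanned 12.3-fold in ZH11 and 8.43-fold in DGP1-OE1, and HSP101 spanned 5.79-fold and 2.25-fold. Os03g0266300 spanned 2.98-fold and 1.82-fold, and Os03g0267000 2.37-fold and 1.96-fold, so each locus had its wider span in ZH11. With 3 libraries a group, the difference between these spans was not tested.

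**Figure D3:**
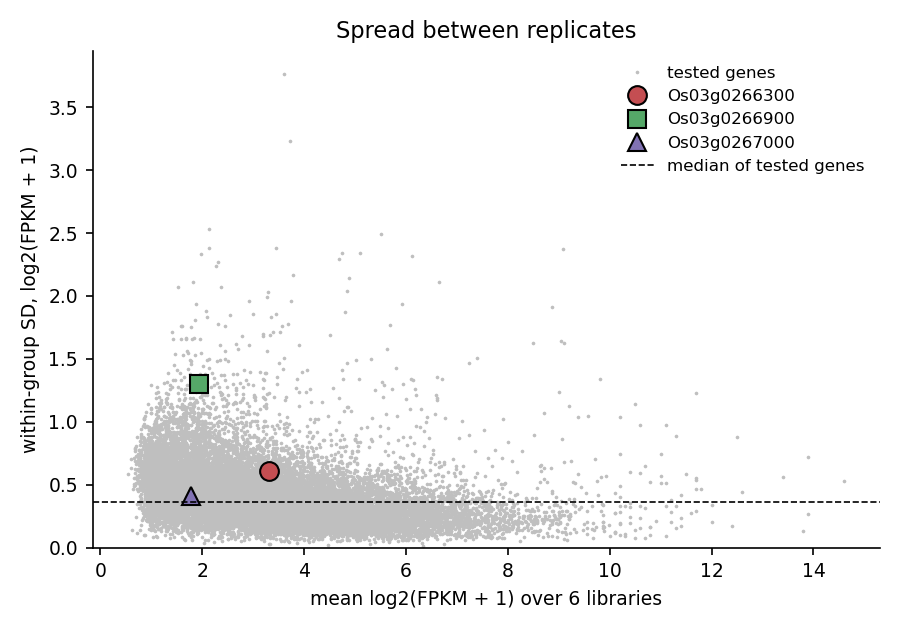
Within-group SD of log2(FPKM + 1) against the mean of log2(FPKM + 1) over 6 libraries for the tested genes (grey points), with the 3 tested small heat shock proteins as coloured marks and the median SD of tested genes, 0.366, as a dashed line. Os03g0266900 lies in the upper part of the cloud at 1.3, Os03g0266300 lies above the line at 0.614, and Os03g0267000 is close to it at 0.408.

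The small heat shock proteins peaked in the same library. ZH11 replicate 2 was the highest of the 6 libraries for all 3 of them. Of all tested genes, 20.8% had their highest value in that library. The split of reads among the 3 loci is uncertain, so their common peak is not 3 separate observations. HSP101 had its highest value in ZH11 replicate 1, as did 12.9% of the tested genes. Below the top, the order of libraries differed between the loci. DGP1-OE1 replicate 2 was the second highest library for Os03g0266300 and the lowest of the 6 for Os03g0266900 and Os03g0267000. DGP1-OE1 replicate 3 was the second highest for Os03g0266900 and the lowest for HSP101. With libraries scaled by their median ratio to the geometric means of the genes, ZH11 replicate 1 was second highest for Os03g0266300, at 8.91 FPKM.

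The summed FPKM of the 3 small heat shock proteins was 14.9, 39 and 10.6 in ZH11 replicates 1, 2 and 3, and 8.36, 11.4 and 16.4 in DGP1-OE1 replicates 1, 2 and 3. ZH11 replicate 2 stood apart with the highest sum, and the other 5 libraries of both genotypes overlapped. Os03g0266300 gave 54.6% to 67.7% of the sum in ZH11 and 42.8% to 84.3% in DGP1-OE1. Os03g0266900 gave 9.2% to 30.6% in ZH11 and 7.97% to 46.7% in DGP1-OE1, and was the largest contributor in DGP1-OE1 replicate 3. Os03g0267000 gave 14.8% to 28.9% in ZH11 and 7.68% to 19.6% in DGP1-OE1, so its shares overlapped between the genotypes where its levels did not.

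**Figure D4:**
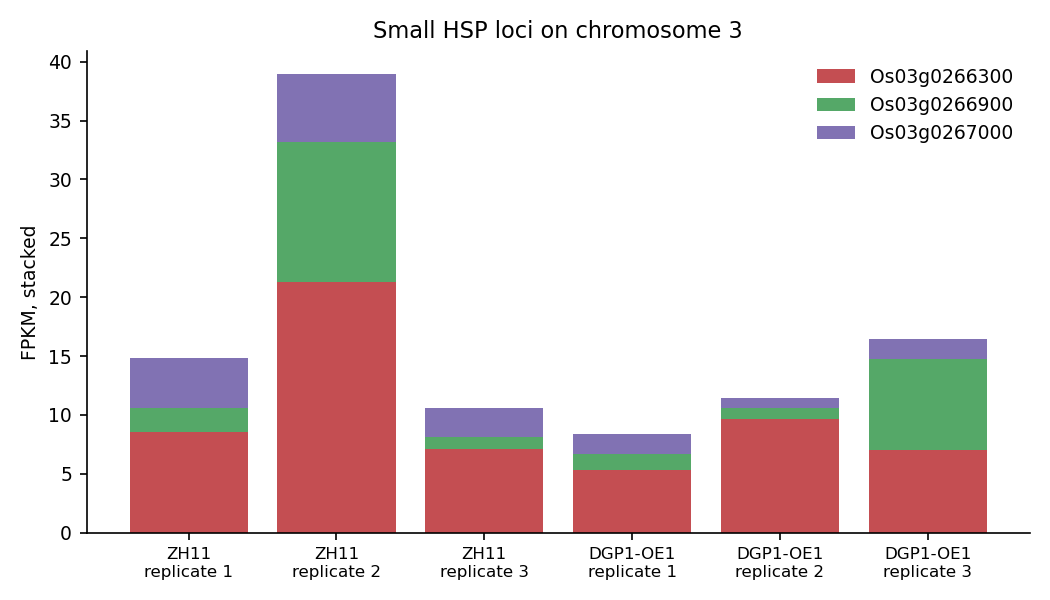
FPKM of the 3 small heat shock proteins on chromosome 3, stacked per library from 0. ZH11 replicate 2 reaches 39 FPKM and the other libraries 8.36 to 16.4 FPKM, and the part of Os03g0266900 is widest, as a share of the bar, in DGP1-OE1 replicate 3 at 46.7%.

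Genes next to these loci in ID order differed in both directions, and none was called. Within 3 places of the 4 listed loci stood 14 other listed loci, of which 13 were tested. Of the 13, 0 were called by limma, where 0.356% of all tested genes were. An unadjusted limma p under 0.05 was seen for 2 of the 13, and for 1607 of all 18270 tested genes. The differences of the 13 in log2(FPKM + 1) ran from -0.53 to 0.97 with a median of 0.3. None of the 13 was lower in DGP1-OE1 without overlap. The same 2 were higher without overlap, a pattern seen in 6.72% of the tested genes.

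The 2 tested genes whose pattern over the 6 libraries was most like the mean standardised pattern of the 3 tested loci were Os11g0490300 (Pearson's r = 0.991 on the log2(FPKM + 1) scale) and Os05g0185800 (r = 0.99). Both had their highest value in ZH11 replicate 2, at 11.3 FPKM for Os11g0490300 and 18.7 FPKM for Os05g0185800, and neither differed between the genotypes past the threshold (limma, adjusted p = 0.802 and 0.777). Each r is a description over 6 libraries that share 1 high library, and 93 of 18267 genes had an r above 0.9. The 3 tested loci, which are part of the mean pattern, had an r of only 0.846 to 0.877 with it. Between pairs of the 3 loci Pearson's r ran from 0.553 to 0.634, so a gene close to the mean pattern need not follow each locus.

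Summed over all rows, the library totals lay between 686327 and 752617 FPKM. The library medians lay between 6.69 FPKM in DGP1-OE1 replicate 3 and 8.29 FPKM in ZH11 replicate 2, and 56 to 637 rows were listed at 0. ZH11 replicate 2 thus had the highest median as well as the highest small heat shock protein levels. After quantile scaling, which gives all libraries the same distribution and was looked at here after seeing the data, ZH11 replicate 2 was the highest library for all 3 small heat shock proteins, at 20, 11 and 5.24 FPKM for Os03g0266300, Os03g0266900 and Os03g0267000, where the next library held 9.03, 8.53 and 4.45 FPKM. The part of the library median, or of any other library measure, in these results was not tested.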

How the data were processed

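The authors deposited 1 table of FPKM values, with 3 columns for ZH11 and 3 for DGP1-OE1. Per the submitters' processing notes, HISAT2 2.0, StringTie 1.3.0 and Bowtie 0.12.2 were used, with no role or order given. The notes name the mouse build mm8, which does not go with rice locus IDs, and no source used here gives the rice build or annotation. Columns headed DGP1-OE were taken as DGP1-OE1, the only overexpressor. Chromosomes were read from the IDs.

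Sequencing depth is unknown. Genes listed under 0.5 FPKM were compared between each pair of libraries for a shared ratio that whole reads would give, and the best-filled window of ± 0.02 log2 units held no more than 4.94% of them. No counting interval is therefore given. FPKM also depends on the transcript models and on the other genes of a library.

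Genes with at least 1 FPKM in at least 3 of 6 libraries (18270) were fitted on log2(FPKM + 1) with limma 3.58.1 (R 4.3.3), using trended empirical Bayes moderation, and the two-sided p-values were adjusted over all tested genes (Benjamini-Hochberg, threshold 0.05). This scale understates how much low genes change. Simulated data with known changes were used to check the fit. The heat shock loci and all lists were chosen with earlier results of these data known. All 8 loci are named, with the genes most like the mean pattern of the tested loci and called ID neighbours. Lists of other heat shock genes and a search for heat shock elements could not be run: 0 of 19696 IDs matched the RefSeq gene table, and no promoter or protein sequences were used here. Alternatives were another pseudocount, filters, scalings, moderation settings, a replicate block and leaving out each library.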

Additional observations from a re-analysis of the deposited data

How the results depend on the processing

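Under all 15 alternatives 0 heat shock loci were called higher and 0 lower by limma. The difference of Os03g0266300 ran from -0.84 to -0.12 log2 units (adjusted p from 0.472 to 0.957), that of Os03g0267000 from -1.47 to -0.84 (adjusted p from 0.276 to 0.818) and that of Os03g0266900 from -0.99 to 0.48 (adjusted p from 0.753 to 1). Os03g0266900 was positive without ZH11 replicate 2 (0.48) and without DGP1-OE1 replicate 2 (0.1). HSP101, which did not pass the filter, was at -1.68 with a pseudocount of 0.1 and no filter, and at -1.23 to -0.41 in unfiltered fits without single libraries, which were chosen after seeing the data (adjusted p from 0.406 to 0.932 over all its unfiltered fits). The median difference of the tested loci ran from -0.99 to -0.12 when single libraries were left out. Over all genes, 29 were called higher and 36 lower; leaving out single libraries gave 16 to 39 and 9 to 42, a pseudocount of 0.1 gave 21 lower, and no intensity trend 14 lower. The fit with a replicate block called 130 genes higher and 139 lower, and none of the heat shock loci (adjusted p = 0.472 for Os03g0266300, 0.908 for Os03g0266900, 0.276 for Os03g0267000 and, unfiltered, 0.406 for HSP101). The labels do not pair the numbers. Deviations from the group means correlated at 0.016, 0.38 and 0.14 for libraries of the same number, and not every library correlated best with its own number. The filter at 5 FPKM left only Os03g0266300. The cause of these shifts was not tested. At the SEs of the tested loci in the fit of all 6 libraries, a call needed a difference of 2.11 to 3.98 log2 units. With the depth unknown, it cannot be said how far low coverage set these SEs.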
